A study of Homo sapiens with 48 samples.

Results

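The genes described here encode voltage-gated calcium, sodium and potassium channels, their auxiliary subunits and the ryanodine receptors, which release calcium from the endoplasmic reticulum. They were taken by symbol alone, and 138 of the 19923 gene names in the deposited tables matched. By family these were 10 calcium channel pore genes (CACNA1), 4 alpha2delta, 4 beta and 8 gamma genes, 10 sodium channel alpha and 4 beta genes, 3 ryanodine receptors and 95 potassium channel genes. The symbol pattern also takes potassium channels that are not gated by voltage alone, namely 16 inward rectifiers, 15 two-pore leak channels and 8 channels opened by calcium or sodium ions. The other potassium members were 40 voltage-gated pore genes, 3 Kv beta, 4 KChIP, 5 KCNE and 4 BK beta subunit genes.

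A voltage-gated channel opens when the membrane depolarizes. Sodium channels drive the upstroke of the action potential, potassium channels restore the resting potential, and calcium channels turn electrical activity into calcium entry. Neuroblastoma arises from sympathetic nerve precursors, whose mature descendants carry N-type calcium and tetrodotoxin-sensitive sodium currents. METTL3 is the catalytic subunit of the enzyme that places N6-methyladenosine (m6A) on mRNA, a mark linked to mRNA turnover, and STM2457 is a small-molecule inhibitor of it.

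Kelly and NGP are established human neuroblastoma cell lines, both MYCN-amplified according to the labels. Cells of each line received STM2457 at 8 µM, or DMSO as the solvent control, for 3 or 6 days, and then actinomycin D at 10 µg/ml, a blocker of transcription, for 0, 3 or 6 h. Poly(A) RNA was sequenced in 48 libraries, 2 for each of 24 groups. No label states that both libraries of a group came from separate cultures, so the p-values measure only the spread between these libraries, which may be technical.

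Fragments assigned to genes numbered 13807701 to 19774227 per Kelly library and 11139550 to 21942238 per NGP library. The 138 channel genes took 0.138 to 0.208% of them in Kelly and 0.165 to 0.280% in NGP, or 21301 to 50073 fragments per library. Adrenergic neuroblastoma markers were present: 10 of 10 averaged 1 CPM or more in Kelly and 9 of 10 in NGP. CPM are a gene's fragments scaled to the library's total after that total is adjusted by TMM. This adjustment sets the typical gene to no change between libraries. In NGP TH, which makes dopamine precursors, stood at 0.489 CPM in DMSO. The summed level of 8 muscle markers was 7.44 to 12.9 CPM in Kelly and 5.39 to 8.65 CPM in NGP in DMSO at 0 h, most of it TNNT2 (means 7.51 and 5.84 CPM). Olfactory receptor genes (379), silent in most tissues, reached 1000 fragments or more in 7 libraries, all of them Kelly after actinomycin D. At 0 h the highest such sum was 404, and the highest in NGP was 470.

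Levels between genes are given as CPM per kilobase of exon, averaged over the 4 DMSO libraries of a line at 0 h (both durations). The length is that of all annotated exons of a gene merged, which can exceed that of any 1 mRNA. For KCNMA1 it was 35644 bases, beside 6261 in the transcript read below, and for CACNA1B 9904 beside 9792. Levels and ranks between genes therefore depend on the annotation. On that scale 45 of the 138 genes reached at least 1 in Kelly and 49 in NGP. The calcium channel pore was dominated by CACNA1B, which encodes the N-type channel: 13.7 ± 2.39 (SD, n = 4) in Kelly and 17.8 ± 4.62 in NGP. CACNA1C, an L-type pore, followed in Kelly at 1.78 ± 0.556 and stood at 1.17 ± 0.399 in NGP. The other pore gene above 1 was CACNA1H, a low-voltage-activated T-type pore, at 4.79 ± 2.28 in NGP and with no fragment in the 4 Kelly libraries.

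Among auxiliary calcium subunits, the level of CACNG4 was 22.0 ± 6.19 CPM per kilobase in Kelly, the highest of the 138 genes there, and 15.4 ± 1.72 in NGP. Its product is a gamma family member better known as a partner of AMPA receptors. The alpha2delta subunits, which carry the pore to the membrane, differed in make-up. CACNA2D1 had 7.83 ± 0.590 in Kelly and 17.6 ± 2.12 in NGP, CACNA2D2 had 8.49 ± 1.08 and 6.73 ± 0.565, and CACNA2D3 had 6.33 ± 0.907 and 0.203 ± 0.0881. Of the beta subunits, which bind the pore inside the cell, CACNB3 (3.28 ± 1.09 and 3.38 ± 0.641) and CACNB1 (3.21 ± 0.377 and 2.89 ± 0.669) had similar levels in both lines.

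SCN8A had the highest level of the sodium channel alpha subunits in Kelly, at 4.54 ± 0.829 CPM per kilobase (n = 4), and 3.91 ± 0.185 in NGP. SCN3A, an alpha subunit best known from the fetal brain, led in NGP at 5.99 ± 0.257 against 2.31 ± 0.270 in Kelly. SCN3B was the only beta subunit gene above 1 in either line, at 1.76 ± 0.387 in Kelly. The ryanodine receptors differed most between the lines in RYR2, the heart and brain form: 9.34 ± 3.73 in NGP against 0.131 ± 0.0504 in Kelly. RYR3 was at most 14.7 CPM in a DMSO library at 0 h, and RYR1, the skeletal muscle form, had no fragment in 7 of those 8 libraries.

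Potassium channel levels were led by KCNH2, which encodes the hERG channel (21.1 ± 1.80 CPM per kilobase in Kelly and 23.7 ± 2.32 in NGP), and by KCNG1, at 34.2 ± 11.2 in NGP and 7.37 ± 0.343 in Kelly. KCNG1 encodes an electrically silent subunit that modifies KCNB channels, and its partner KCNB2 had 16.4 ± 7.76 in NGP and 2.48 ± 0.416 in Kelly. KCNK3, the acid-sensitive TASK-1 leak channel, had 12.6 ± 0.813 in Kelly and 4.93 ± 0.293 in NGP. KCNJ8, a pore of ATP-sensitive channels, stood at 8.76 ± 2.91 and 7.03 ± 1.13. KCNJ12, an inward rectifier, had 9.72 ± 1.59 in Kelly and 1.37 ± 0.185 in NGP; the near-identical copy KCNJ18 makes its counts uncertain. Among the 5 KCNE subunits, which modify potassium channel pores, no level exceeded 0.251 in either line.

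**Figure D1:**
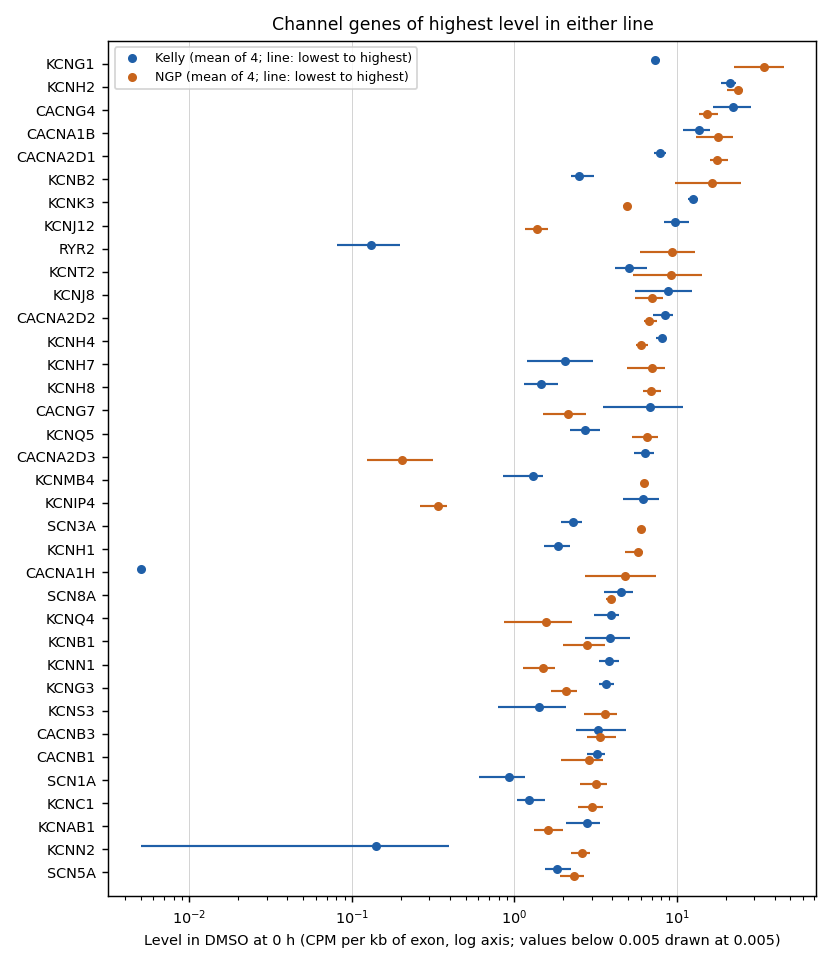
Level of 36 channel genes with high levels in either line, in CPM per kilobase of exon on a log axis, with the mean (point) and the lowest to highest value (line) of the 4 DMSO libraries at 0 h of Kelly (blue) and NGP (orange). KCNH2 and CACNA1B lie close in both lines, whereas CACNA1H and RYR2 are far higher in NGP.

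At 3 days in DMSO, 47 of the 127 channel genes that passed the filter on low counts differed between the lines, 27 higher in NGP and 20 higher in Kelly, where 30% of all genes tested were called. At 6 days 50 differed, 28 higher in NGP and 22 higher in Kelly (31.6% of all genes). A call means an adjusted p under 0.05 in edgeR's quasi-likelihood test, with p-values adjusted by Benjamini and Hochberg's method over all genes tested, and every adjusted p given comes from it. The same direction was called at both durations for 23 genes in NGP and 16 in Kelly. The median log2 difference was 0.00 over the channel genes and over all genes at each duration. With scaling to the spike-ins, the synthetic ERCC RNAs counted in each library, the split was 35 higher and 17 lower in NGP at 3 days, and 26 each at 6 days. The medians over all genes were then 0.27 and -0.13. Shares of all genes called were not computed with spike-in scaling, so counts under it are not set against genes at large.

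CACNA1H had 340 and 317 fragments in the NGP libraries at 3 days and 1158 and 796 at 6 days, and 0 in all 4 Kelly libraries. RYR2 had 113 and 105 CPM in NGP at 3 days and 227 and 214 at 6 days, against 1.48 to 3.56 CPM in Kelly. The log2 difference of RYR2 was 5.78 ± 0.28 (SE) at 3 days and 6.42 ± 0.27 at 6 days (adjusted p 3.74e-28 and 1.59e-31, edgeR). The groups did not overlap for either gene. The other genes named for the largest difference toward NGP were KCNQ3, an M-current pore (163 to 350 fragments against 0 to 11), KCNN2, a calcium-activated SK channel (184 to 323 against 0 to 37), KCNK6, a two-pore channel (24 to 169 against 0 in each Kelly library), and CACNA1A, the P/Q-type pore (30 to 101 against 0 to 13).

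Toward Kelly the largest differences were in KCNK5, a TASK-2 leak channel, with 127 to 184 fragments and 0 in each NGP library, and in KCNA2, a Shaker-type pore, with 28 to 156 and again 0 in NGP. KCNK10, a TREK-2 leak channel, had 57 to 247 fragments against 0 to 3 in NGP. SCN4A, the skeletal muscle sodium channel, had 6 to 128 fragments against 0 to 6 in NGP, so that its lowest and highest libraries met. CACNA2D3 had 395 to 705 fragments against 8 to 19 in NGP, a log2 difference of -4.88 ± 0.53 at 3 days and -5.06 ± 0.52 at 6 days. KCNIP4, a KChIP subunit that sets the inactivation of Kv4 channels, had 373 to 543 and 19 to 25, but 37.4% of its exon bases overlap PACRGL on the opposite strand, and no use of strand in counting is stated. Fitted fold changes against a group at 0 depend on a prior count and are not given for these differences between lines.

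Before actinomycin D, STM2457 changed few channel genes. In Kelly 1 of 124 tested genes was called at 3 days, a fall, where 1.68% of all genes were called (0.579% higher and 1.1% lower). At 6 days 3 Kelly genes rose, beside 3.97% of all genes (2.7% higher and 1.26% lower). In NGP 6 of 103 fell at 3 days, beside 3.7% (1.25% higher and 2.45% lower). At 6 days 1 rose and 6 fell, beside 7.99% (4.45% higher and 3.55% lower). Across the 4 comparisons 14 genes were called at least once, none in all 4, and KCNG1 alone in both lines, in opposite directions. The median log2 change of the tested channel genes at 3 and 6 days was 0.01 and -0.08 (Kelly) and 0.04 and -0.07 (NGP), beside 0.00, 0.00, 0.00 and 0.02 over all genes. Scaling to the spike-ins moved the median of all genes by 0.38 and -0.21 in Kelly at 3 and 6 days, and then called 14 channel genes higher and 0 lower, and 1 higher and 4 lower. For NGP the spike-in calls were 2 higher and 2 lower, and 1 higher and 6 lower, where the medians over all genes were 0.10 and -0.02. The percentages of all genes given above belong to TMM scaling, and none were computed with spike-in scaling. Only genes counted well enough in some group entered these tests, and 13 of the 138 passed the filter in neither line.

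**Figure D2:**
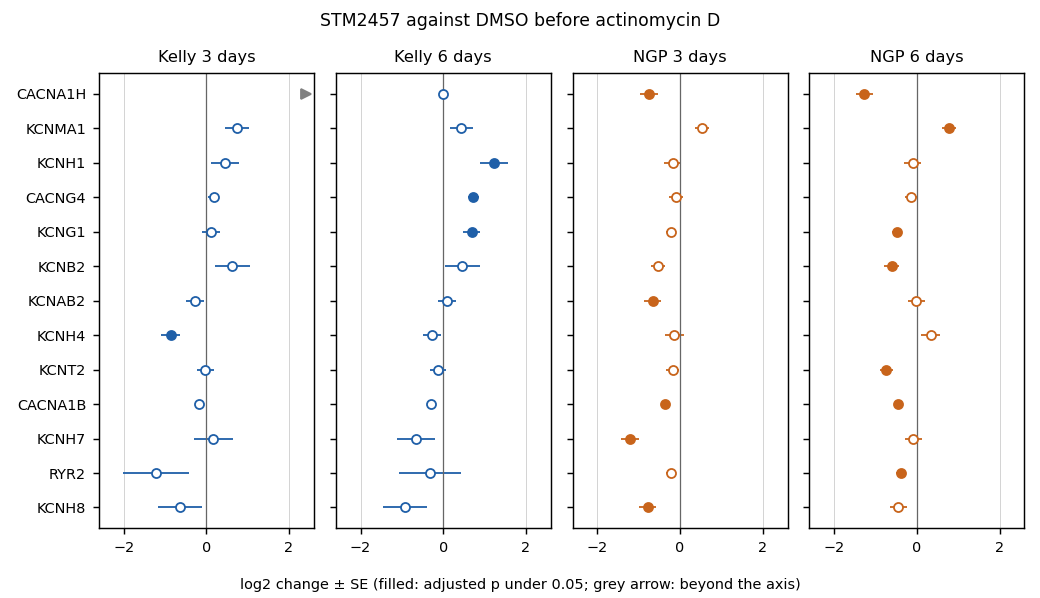
log2 change ± SE of STM2457 against DMSO at 0 h for 13 of the 14 channel genes called in at least 1 comparison, with filled points for an adjusted p under 0.05 (edgeR's quasi-likelihood test) and a grey arrow for a value beyond the axis. KCNG1 is filled on the positive side in Kelly at 6 days and on the negative side in NGP at 6 days.

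The N-type pore gene CACNA1B (chr9:137877782-138124624 on GRCh38, + strand) fell in NGP at both durations. At 3 days its level was 130 and 144 CPM in DMSO and 115 and 97.0 CPM under STM2457. At 6 days it was 215 and 209 CPM in DMSO against 143 and 166 CPM. Every treated library lay below every DMSO library of its duration, with log2 changes of -0.37 ± 0.10 and -0.45 ± 0.10 (adjusted p 0.0160 and 0.000515, edgeR). The 3-day call was lost without replicate 2 of DMSO (log2 change from -0.50 to -0.26 over the libraries left out) and without replicate 2 of STM2457, with spike-in scaling (-0.27) and with limma-voom (-0.38). At 6 days it was lost without replicate 1 of STM2457 (-0.57 to -0.35). In Kelly the log2 changes did not pass the test.

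CACNA1H (chr16:1153106-1221771, + strand) also fell in NGP at both durations. At 3 days it had 26.5 and 23.1 CPM in DMSO and 14.3 and 15.1 CPM under STM2457. At 6 days the levels were 62.8 and 50.6 CPM against 25.9 and 21.0 CPM. The groups were apart at each duration, with log2 changes of -0.75 ± 0.22 and -1.27 ± 0.21 (adjusted p 0.0289 and 3.00e-06, edgeR). The 6-day call held without any 1 of its 4 libraries, whereas the 3-day call was lost without each of them, with spike-in scaling (-0.65) and with limma-voom (-0.75). Of the 10 calcium pore genes tested in NGP these 2 fell and 8 did not pass the test at either duration.

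CACNG4 (chr17:66964707-67033398, + strand), the gamma family member, rose in Kelly at 6 days. It had 60.2 and 61.3 CPM in DMSO and 104 and 97.5 CPM under STM2457, a log2 change of 0.73 ± 0.13 (adjusted p 1.64e-05, edgeR). With spike-in scaling the change was 0.48 and still called. At 3 days the levels were already 105 and 96.1 CPM in DMSO and 108 and 118 CPM under STM2457, so the treated 6-day libraries lay near the 3-day libraries and the 6-day DMSO libraries lay apart. In NGP the levels were 49.1 to 62.9 CPM in DMSO and 43.9 to 53.6 CPM under STM2457. The difference of the effect between the lines at 6 days, NGP minus Kelly, was -0.84 ± 0.21 (adjusted p 0.0128, edgeR), and it was lost without replicate 1 of STM2457 in Kelly or replicate 2 of DMSO in NGP (-0.96 to -0.72) and with spike-in scaling (-0.65).

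RYR2 (chr1:237042184-237833988, + strand) fell in NGP at 6 days, from 227 and 214 CPM in DMSO to 168 and 168 CPM under STM2457 (log2 change -0.39 ± 0.11, adjusted p 0.00984, edgeR). At 3 days the levels were 113 and 105 CPM against 97.5 and 89.1 CPM, a log2 change of -0.22 ± 0.11 that did not pass (adjusted p 0.364, edgeR). The 6-day call was lost without replicate 1 of either group, with log2 changes between -0.43 and -0.35 over the libraries left out. RYR3 did not pass in any of the 4 comparisons, and RYR1 had at most 15 fragments in any library at 0 h. No sodium channel gene, alpha or beta, was called in either line.

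KCNG1 (chr20:51003656-51023107, - strand) rose in Kelly at 6 days and fell in NGP at 6 days. Its Kelly levels at 6 days were 38.5 and 39.7 CPM in DMSO and 65.7 and 60.0 CPM under STM2457. In NGP they were 220 and 244 CPM in DMSO and 170 and 163 CPM under STM2457. No treated library overlapped the DMSO libraries of its line at that duration. The log2 changes were 0.68 ± 0.22 in Kelly (adjusted p 0.0450) and -0.48 ± 0.11 in NGP (adjusted p 0.00110, edgeR). The difference between lines was itself called, at -1.15 ± 0.21 (adjusted p 0.000140, edgeR), and held without any 1 of 8 libraries. The Kelly call alone was lost without each of its 4 libraries, with another normalization (relative log expression size factors, 0.67) and with spike-in scaling (0.43).

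Another voltage-gated pore gene that rose in Kelly at 6 days was KCNH1 (EAG1), with 15.1 and 21.0 CPM in DMSO and 41.3 and 42.7 CPM under STM2457. Its log2 change was 1.22 ± 0.34 (adjusted p 0.0156, edgeR). The call was lost without each of the 4 libraries (0.98 to 1.45) and with spike-in scaling (0.96). Of its exon bases, 16.1% overlap a second gene on the same strand. The single call in Kelly at 3 days was KCNH4 (ELK1), at 28.9 and 33.1 CPM in DMSO and 17.7 and 16.2 CPM under STM2457 (log2 change -0.87 ± 0.23, adjusted p 0.0182, edgeR). It too was lost without each of the 4 libraries (-0.95 to -0.76), with spike-in scaling (-0.47) and with limma-voom (-0.86).

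KCNH7, KCNH8 and KCNAB2 also fell in NGP at 3 days. KCNH7 (ERG3) had 36.9 and 24.6 CPM in DMSO and 12.8 and 13.5 CPM under STM2457, a log2 change of -1.22 ± 0.22 (adjusted p 6.13e-05, edgeR's quasi-likelihood test). KCNH8 (ELK3) had 48.8 and 37.2 CPM against 22.7 and 27.2 CPM, a change of -0.78 ± 0.21 (adjusted p 0.0131, edgeR). Both kept their call with spike-in scaling, while KCNH7 lost it without replicate 1 of DMSO (-0.90) and KCNH8 without replicate 1 of either group (-0.97 to -0.57 over the libraries left out). KCNAB2, a cytoplasmic Kv beta subunit, went from 25.2 and 30 CPM to 17.2 and 17.7 CPM (-0.67 ± 0.21, adjusted p 0.0490, edgeR). That call was lost without each of its 4 libraries (-0.79 to -0.53), with spike-in scaling (-0.56), with no filter on low counts (-0.65) and with limma-voom (-0.66).

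KCNH7 did not pass the test at 6 days in NGP, where it had 41.8 and 35.0 CPM in DMSO and 35.8 and 36.3 CPM under STM2457. The change of its STM2457 effect from 3 to 6 days was 1.13 ± 0.30 (adjusted p 0.0175, edgeR), the only such call among the channel genes (2.8% of all genes in NGP, 1.04% lower). That call was lost without 6 of the 8 libraries when left out singly (0.81 to 1.39) and with spike-in scaling (0.99). In Kelly none of 124 genes was called for this difference (0.788% of all genes called by edgeR), while DESeq2 called 1. An unadjusted p under 0.05 was given by edgeR to 8 of the 124, and the share of all genes at that threshold was not computed.

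At 6 days in NGP, KCNMA1 was the only channel gene to rise, and KCNT2 and KCNB2 fell. KCNMA1, the pore of the large-conductance calcium-activated BK channel, had 38.8 and 25.4 CPM in DMSO and 50.6 and 58.9 CPM under STM2457 (log2 change 0.77 ± 0.17, adjusted p 0.000698, edgeR's quasi-likelihood test). Its call was lost without replicate 2 of DMSO (0.49). KCNT2, a sodium-activated channel, went from 100 and 83.0 CPM to 54.8 and 55.0 CPM (-0.74 ± 0.15, adjusted p 0.000188, edgeR), and that call held without any 1 of its 4 libraries. KCNB2, a delayed rectifier, went from 77.5 and 91.9 CPM to 50.6 and 60.1 CPM (-0.61 ± 0.17, adjusted p 0.0113, edgeR); it was lost without replicate 2 of DMSO or replicate 1 of STM2457 (-0.74 to -0.49).

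For the difference of the STM2457 effect between the lines, 1 of 127 channel genes was called at 3 days (0.161% of all genes, 0.0865% higher) and 3 at 6 days (1.75%). Beside CACNG4 and KCNG1 these rested on few fragments. CACNA1H at 3 days had 0 and 0 fragments in DMSO and 14 and 10 under STM2457 in Kelly, while it fell in NGP. CACNA1E at 6 days had 32 and 1 fragments in DMSO and 0 and 0 under STM2457 in Kelly, against 0 and 0 in DMSO and 30 and 9 under STM2457 in NGP. The CACNA1E call was lost without 6 of its 8 libraries when left out singly and with the 7 Kelly libraries rich in olfactory receptor fragments left out. The CACNA1H call held without any 1 library but was lost with limma-voom.

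**Figure D3:**
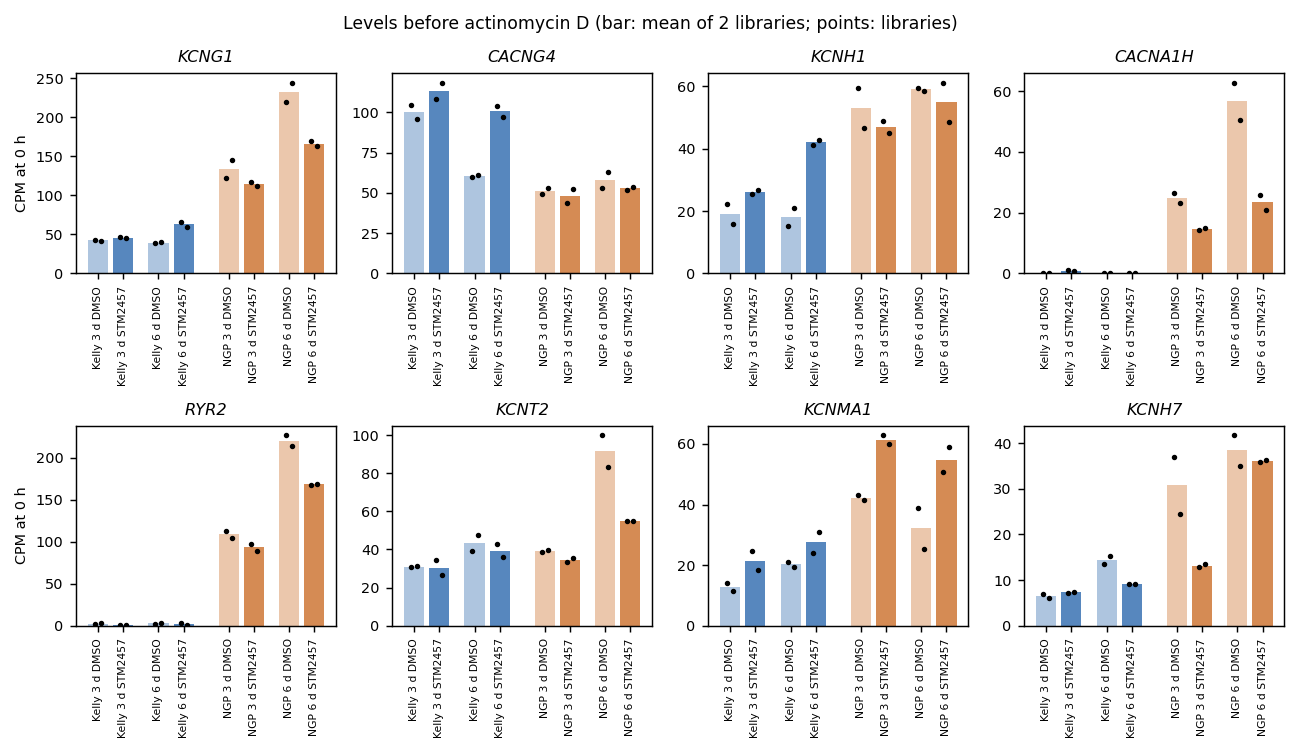
CPM at 0 h of 8 channel genes by line, days of treatment and treatment, with bars from 0 to the mean of 2 libraries and points for each library. In NGP the DMSO bars at 6 days stand above the DMSO bars at 3 days for KCNG1, CACNA1H, RYR2 and KCNT2, and the STM2457 bars at 6 days stand below the DMSO bars of that duration.

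The 6 genes that fell in NGP at 6 days were also higher in DMSO at 6 than at 3 days. This comparison, added after the values were seen, called 10 of 103 channel genes in NGP, all higher at 6 days (12.1% of all genes, 5.37% higher), and 7 of 124 in Kelly, 6 of them higher (8.52%, 2.78% higher). The median log2 change was 0.32 over the channel genes in NGP and 0.34 in Kelly, beside 0.01 and 0.00 over all genes. With spike-in scaling the NGP calls were 9 higher and 5 lower with a median of 0.15 (-0.15 over all genes), and the Kelly calls 19 higher and 0 lower with a median of 0.72 (0.35 over all genes). The share of all genes called with that scaling was not computed. In NGP the log2 changes from 3 to 6 days in DMSO were 1.02 ± 0.11 for RYR2, 1.19 ± 0.21 for CACNA1H, 1.23 ± 0.15 for KCNT2, 1.21 ± 0.18 for KCNB2, 0.80 ± 0.11 for KCNG1 and 0.63 ± 0.10 for CACNA1B. All 6 calls held without any 1 library and with spike-in scaling (0.46 to 1.05). Both comparisons use the same 6-day DMSO libraries, so a library effect there would enter both with opposite sign. In Kelly the gene that fell from 3 to 6 days in DMSO was CACNG4 (-0.72 ± 0.13, or -0.34 and not called with spike-in scaling).

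Genes of the same machinery that the symbol pattern leaves out were read from a list of 54, among them other pore genes, calcium pumps and store proteins. Of 53 tested in Kelly, 1 rose and 1 fell at 3 days (1.68% of all genes called), and 2 rose and 1 fell at 6 days (3.97%). Of 49 tested in NGP, 2 fell and none rose at 3 days (3.7%), while 2 rose and 3 fell at 6 days (7.99%). TPCN1, a lysosomal two-pore cation channel, fell in Kelly at 3 and 6 days (-0.65 ± 0.18 and -1.07 ± 0.18). ATP2B3 and ATP2B2, plasma membrane calcium pumps, fell in NGP at 3 days (-0.83 ± 0.10 and -1.13 ± 0.23) and at 6 days (-0.72 ± 0.10 and -0.78 ± 0.22), and ATP2B1, another such pump, fell at 6 days (-0.44 ± 0.11). The higher calls in NGP at 6 days were the calmodulin genes CALM3 (0.25 ± 0.06) and CALM2 (0.25 ± 0.08). SLC8A3, a sodium-calcium exchanger, rose in Kelly at 6 days (0.51 ± 0.12), as did ITPR1, a calcium release channel of the stores (0.43 ± 0.12), and ANK2, an ankyrin that anchors membrane channels, rose in Kelly at 3 days (0.44 ± 0.10).

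Actinomycin D stops new synthesis, so the change over 6 h reads how long each mRNA lasts relative to the typical mRNA. TMM scaling sets that typical gene to no change, and a loss shared by all genes does not show in it. In DMSO, 18 of 124 channel genes in Kelly changed over 6 h at 3 days, 7 higher and 11 lower, and 11 at 6 days, 3 higher and 8 lower (30.1% and 26.5% of all genes). In NGP 19 of 103 changed at 3 days, 4 higher and 15 lower, and 28 at 6 days, 8 higher and 20 lower (37.4% and 36.7% of all genes). The median log2 change of the channel genes was 0.00 and 0.06 in Kelly and -0.20 and -0.23 in NGP, beside 0.00, 0.05, -0.01 and -0.05 over all genes. Spike-in scaling moved the median of all genes to -0.34, -1.18, -0.81 and -1.10, and then 4 channel genes were called higher and 22 lower at 3 days in Kelly, and none higher but 54, 49 and 53 lower in the remaining comparisons in that order. How many of all genes were called with that scaling was not computed.

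**Figure D4:**
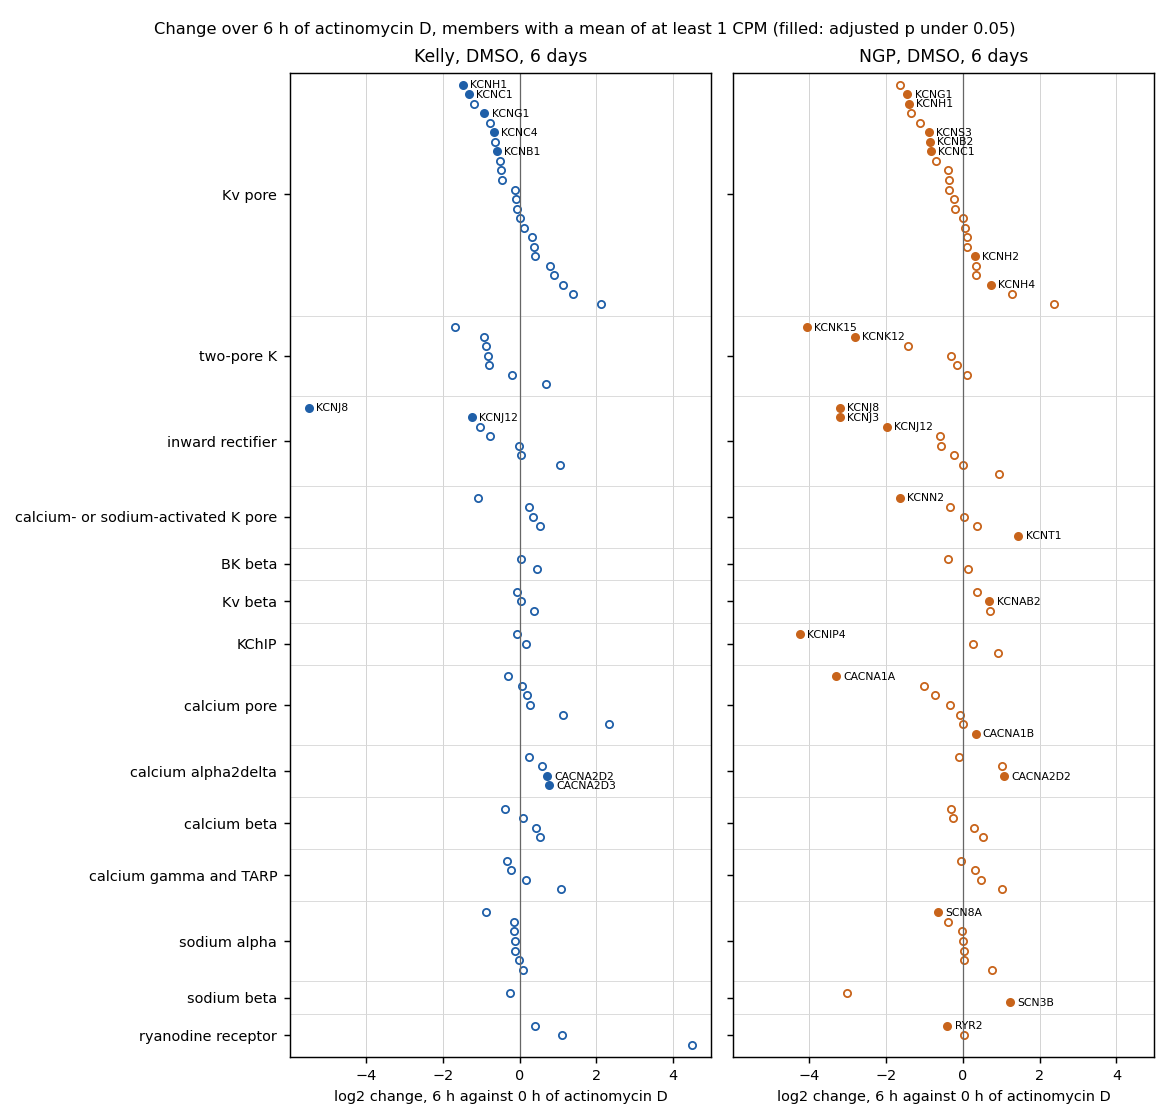
log2 change over 6 h of actinomycin D in DMSO at 6 days (TMM scaling) for channel genes averaging 1 CPM or more, grouped by family; filled, named points passed the test (adjusted p under 0.05, edgeR). KCNJ8, KCNJ12, KCNH1, KCNC1 and KCNG1 are filled on the negative side in both lines, and CACNA2D2 on the positive side.

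KCNJ8, KCNH1, KCNJ12, KCNC1 and KCNG1 were called lower in all 4 comparisons. The inward rectifier KCNJ8 (chr12:21764955-21775600, - strand) fell most. In Kelly at 3 days it had 32.0 and 24.1 CPM at 0 h, 6.66 and 3.32 CPM at 3 h and 1.87 and 0.351 CPM at 6 h. In NGP at 6 days the levels were 20.3 and 13.7 CPM, then 3.87 and 1.40 CPM, then 1.78 and 1.88 CPM. Every 3 h library already lay below every 0 h library of its group. The log2 changes over 6 h at 3 and 6 days were -4.65 ± 0.54 and -5.49 ± 0.60 (Kelly), then -2.48 ± 0.43 and -3.21 ± 0.45 (NGP). All 4 calls held without any 1 library, and with spike-in scaling the changes were -5.09, -6.74, -3.27 and -4.27.

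Of the other 4, KCNH1 fell by 1.85 ± 0.36 and 1.48 ± 0.35 on the log2 scale in Kelly and by 1.75 ± 0.22 and 1.41 ± 0.21 in NGP. KCNC1, a Kv3 pore of fast-spiking neurons, fell by 1.40 ± 0.38 and 1.31 ± 0.38 in Kelly and by 1.92 ± 0.22 and 0.84 ± 0.21 in NGP. KCNJ12 fell by 1.12 ± 0.21 and 1.24 ± 0.21 in Kelly, where it had 46.0 to 66.9 CPM at 0 h and 18.2 to 28.7 CPM at 6 h. In NGP KCNJ12 fell by 1.63 ± 0.56 and 1.98 ± 0.57 from 6.18 to 8.65 CPM, and both calls were lost without replicate 1 of the 6 h group (-1.34 and -1.15, the smallest changes over the libraries left out). The Kelly calls of KCNC1 were lost without replicate 2 of the 6 h group at 3 days and replicate 1 at 6 days (-1.15 and -0.82). KCNG1 fell by 1.72 ± 0.23 and 0.92 ± 0.22 in Kelly and by 1.02 ± 0.11 and 1.45 ± 0.11 in NGP.

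Among the genes that gained in relative level was CACNA2D2 (chr3:50362799-50504244, - strand), an alpha2delta subunit gene. In DMSO in NGP at 6 days it went from 46.4 and 39.8 CPM at 0 h to 69.2 and 70.6 CPM at 3 h and 90.2 and 90.8 CPM at 6 h. In Kelly at 6 days the levels were 60.7 and 59.1 CPM, then 83.4 and 74.0 CPM, then 107 and 88.7 CPM. In both courses every later library lay above every 0 h library. The log2 change over 6 h was called higher in 3 of the 4 comparisons (0.71 ± 0.16 in Kelly at 6 days, 0.64 ± 0.15 and 1.07 ± 0.15 in NGP) and was 0.23 ± 0.16 in Kelly at 3 days. With spike-in scaling the 3 values were -0.57, -0.17 and 0.01, so that the direction turned in 2 of them, and the Kelly value was then called lower (adjusted p 0.00136, edgeR). CACNA2D3 was called higher in Kelly at both durations (0.67 ± 0.20 and 0.76 ± 0.20), with 0.24, not called, and -0.51, called lower (adjusted p 0.0245, edgeR), under spike-in scaling. Its 3-day call was lost without replicate 2 of the 0 h or of the 6 h group (0.50 to 0.85 over the libraries left out) and its 6-day call without replicate 2 of the 0 h group (0.61 to 0.96).

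Several of the higher calls in Kelly at 3 days were near the detection limit. RYR1 had 0 and 0 fragments at 0 h and 25 and 38 at 6 h, CACNA1E, the R-type pore, 0 and 0 against 5 and 35, CACNA1S, the skeletal muscle L-type pore, 0 and 0 against 19 and 13, and CACNA1A 2 and 0 against 20 and 67. The same libraries held 77 and 160 olfactory receptor fragments at 0 h and 364 and 582 at 6 h. The part of that shift in these calls was not tested. Without either of the 0 h libraries the calls of RYR1, CACNA1E and CACNA1A were lost, and those of CACNA1E and CACNA1A also without replicate 2 of the 6 h group. The CACNA1A call was also lost with spike-in scaling and without the 7 Kelly libraries rich in olfactory receptor fragments. In NGP at 6 days CACNA1A was called lower, from 83 and 101 fragments at 0 h to 16 and 4 at 6 h (log2 change -3.30 ± 0.84, adjusted p 0.000835, edgeR), and that call held without any 1 library and with spike-in scaling (-4.34). It was the 1 channel gene called in opposite directions in the lines under actinomycin D, a difference that was not tested. RYR2 was called lower over 6 h in NGP at 6 days (-0.41 ± 0.11, lost without replicate 2 of the 6 h group, -0.24) and not at 3 days (-0.02 ± 0.11), and RYR3 did not pass in any of the 4 comparisons.

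The sequences of these mRNAs were read in the GENCODE release 44 canonical transcripts (GRCh38), 1 per gene, for 138 of 138 members. ATTTA is the core of AU-rich elements, TTATTTATT is their longer form, and GGACT is the commonest sequence of the m6A consensus; only the mRNA strand was searched, and each TTATTTATT holds an ATTTA. The 3′ UTR of KCNJ12 (3226 bases) held 3 TTATTTATT, overlapping matches counted, and that of KCNH1 (4967 bases) held 1; 14.5% and 20.8% of 3′ UTRs of like length (within 25%) hold one. KCNJ8 and KCNC1 had 1 ATTTA each and no TTATTTATT, beside medians of 1 and 2 ATTTA over 3′ UTRs of like length. KCNJ12 had 4 ATTTA and KCNH1 had 8, beside medians of 7 and 11. KCNG1 had neither motif in a 3′ UTR of 383 bases and no GGACT in the 2189 bases of its canonical transcript. The exons counted for KCNG1 hold 5415 bases, and those for KCNC1 hold 14417, beside 4303 in its transcript. Exon bases outside the canonical transcripts were not searched, and which transcripts these cells hold was not tested. Over all members 12.3% held a TTATTTATT in the 3′ UTR and 94.9% a GGACT in the mRNA, beside 8.29% and 87.9% of 19675 protein-coding genes. These shares are not corrected for length, and the members are longer. Their median 3′ UTR had 1924 bases and their median mRNA 4405.5, beside 1019 and 2900 over all genes. Per kilobase the medians were 1.04 GGACT in the mRNA and 1.34 ATTTA in the 3′ UTR, beside 0.923 and 1.67. A match is a description of these letters only. One TTATTTATT or ATTTA match of each of 4 genes that fell is shown, with the searched motif in capitals. Beside them stands a GGACT match of KCNK3, whose change differed under STM2457. In KCNJ8 the ATTTA is followed directly by the only GGACT of that mRNA.

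KCNJ12 3′ UTR, chr17:21419051-21419079 (+): tccctcgtatTTATTTATTtatttattgc
KCNH1 3′ UTR, chr1:210678330-210678358 (-): aaaaaaagttTTATTTATTatggtaataa
KCNJ8 3′ UTR, chr12:21765056-21765080 (-): gtcttgtctcATTTAggactgggtt
KCNC1 3′ UTR, chr11:17782641-17782665 (+): attgtatgcaATTTAgtacttcaga
KCNK3 3′ UTR, chr2:26728907-26728931 (+): ccttcggaggGGACTtcatgttccg

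The last comparison asked whether STM2457 altered the change over 6 h of actinomycin D. It was called for none of the 124 Kelly genes at 3 or 6 days (0.221% and 0.424% of all genes called, 0.0239% lower at 3 days). Spike-in scaling called 2 channel genes lower at 3 days and 18 higher at 6 days. It also moved the median difference of all genes in Kelly to -0.37 and 0.70 in that order. No share of all genes called was computed with it, so these calls are not set against genes at large. An unadjusted p under 0.05 was given by edgeR to 8 and 6 of the 124. The share of all genes at that unadjusted threshold was not computed, so these counts cannot be read for or against an effect. In NGP it was called for KCNK3 and KCNG1 at 3 days (0.703% of all genes) and for KCNG1 at 6 days (2.54%, of which 1.36% higher and 1.18% lower). The KCNG1 loss was smaller under STM2457. KCNK3, which fell in DMSO, had a higher level relative to the typical gene at 6 h than at 0 h under STM2457. The median difference over the channel genes was 0.25 and 0.16 in Kelly and 0.14 and 0.15 in NGP, beside 0.02, 0.01, 0.00 and -0.02 over all genes. In Kelly both STM2457 libraries at 6 h held many olfactory receptor fragments at each duration (1226 and 1056, then 1000 and 1047). The DMSO libraries at 6 h held 364 and 582, then 1103 and 659. Leaving out the 7 libraries at 1000 or more empties those STM2457 groups, so this comparison could not be refitted in Kelly. Over the 79 channel genes averaging 1 CPM or more, the Kelly medians at 3 and 6 days were 0.25 and 0.10. Beside them stood 0.00 and -0.02 over all genes at that mean. The part of the olfactory receptor fragments in the Kelly medians was not tested.

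In NGP at 3 days KCNK3 (chr2:26692690-26733420, + strand) went from 28.8 and 29.1 CPM at 0 h to 16.1 and 14.8 CPM at 6 h in DMSO, and from 29.6 and 27.7 CPM to 39.5 and 36.5 CPM under STM2457. The 0 h libraries of both treatments overlapped and the 6 h libraries did not. Under STM2457 KCNK3 fragments went from 474 and 431 to 748 and 585, and ERCC fragments from 39365 and 40110 to 74717 and 63664. Per ERCC fragment both 6 h libraries lay below both 0 h libraries, a change that was not tested. The difference of the log2 changes was 1.32 ± 0.29 (adjusted p 0.00673, edgeR). It held without any 1 of 8 libraries and with spike-in scaling (1.46, beside a median of 0.14 over all genes). At 3 h the STM2457 libraries stood at 18.9 and 31.1 CPM, on either side of the DMSO libraries (20.3 and 19.8 CPM). In NGP at 6 days the difference was 0.38 ± 0.28, and in Kelly 0.41 ± 0.20 and -0.16 ± 0.20, none of which passed. With spike-in scaling those values were 0.81, 0.01 and 0.54, and the NGP one and the Kelly one at 6 days were then called (adjusted p 0.0347 and 0.0242, edgeR). The medians over all genes with that scaling were 0.41, -0.37 and 0.70 in the same order. The called Kelly value thus lay below that of the typical gene. Whether the KCNK3 difference in NGP at 3 days was larger than its differences in the other comparisons was not tested.

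KCNG1 in NGP at 3 days went from 122 and 145 CPM to 61.2 and 70.4 CPM in DMSO, and from 117 and 112 CPM to 84.4 and 90.7 CPM under STM2457. At 6 days it went from 220 and 244 CPM to 78.2 and 92.2 CPM in DMSO, and from 170 and 163 CPM to 82.4 and 104 CPM under STM2457. At 6 days the treatments were apart at 0 h and overlapped at 6 h. The differences of the log2 changes were 0.64 ± 0.16 and 0.61 ± 0.16 (adjusted p 0.0313 and 0.0150, edgeR). With spike-in scaling they were 0.78 and 1.03, beside medians of 0.14 and 0.41 over all genes. The calls were lost without 4 of 8 libraries left out singly at 3 days (range 0.51 to 0.75), where limma-voom also lost it (0.64), and without 3 of 8 at 6 days (range 0.44 to 0.77). In Kelly the differences were 0.90 ± 0.31 at 3 days and -0.05 ± 0.31 at 6 days and did not pass. The 0 h libraries are shared with the comparison of STM2457 and DMSO at 0 h, so a high DMSO level there enters both.

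**Figure D5:**
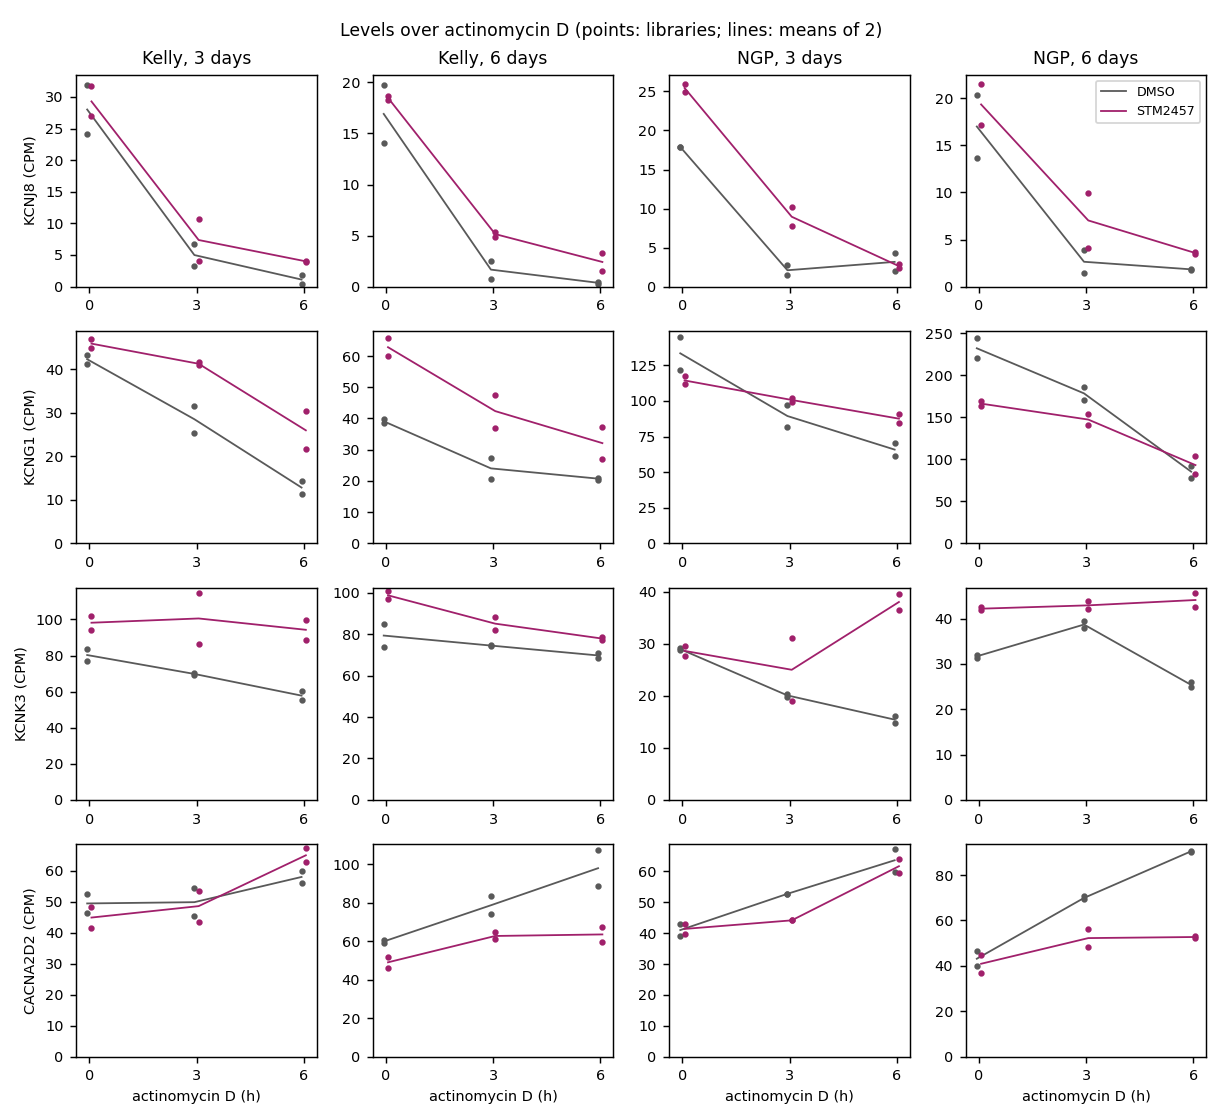
CPM of KCNJ8, KCNG1, KCNK3 and CACNA2D2 over 0, 3 and 6 h of actinomycin D in each line and duration, with points for libraries and lines through the means of 2, DMSO in grey and STM2457 in magenta. KCNJ8 in DMSO is at 6.66 CPM or less by 3 h, CACNA2D2 at 6 days gains in relative level, and KCNK3 in NGP at 3 days parts by treatment at 6 h.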

How the data were processed

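Poly(A) RNA of 48 libraries was read as counts of fragments per gene. The authors made these counts with featureCounts 1.5.3 on GENCODE release 33, per the file headers. The submitters' processing notes also name FastQC 0.11.5, Trimmomatic 0.36, HISAT2 2.1.0 and the build GRCh38. Use of strand is not given in the sources used here. The deposited counts are not normalized.

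Genes were kept by filterByExpr (minimum count 10, minimum total 15), which left 16759 genes in Kelly, 14661 in NGP and 17343 in both lines together, and scaled by TMM. One coefficient per group was fitted in edgeR 4.0.16 (R 4.3.3) over all 24 libraries of a line, or all 48 for contrasts between lines, and contrasts were tested by quasi-likelihood with Benjamini-Hochberg adjustment (threshold 0.05). TMM makes every change relative to the typical gene, and in bulk RNA fewer cells of a kind and less RNA per cell cannot be told apart. Depth limits genes of few fragments: 3 counts is taken as the floor. The alternatives were relative log expression factors, scaling to the ERCC spike-ins, DESeq2 1.42.0, no filter on low counts, limma-voom (limma 3.58.1), a replicate block and leaving out each library. Added after the data were seen were a mean of 1 CPM or more, leaving out the 7 Kelly libraries with many olfactory receptor fragments, and the comparison of durations in DMSO. For contrasts between lines, leaving out a library kept the dispersion trend of all 48. The fits were tested on simulated data.

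The members, the partner list of 54 genes, the marker lists and the tests were chosen with earlier results of these data known. Named are the 10 members of highest level per line and the highest of each family, every member called for STM2457 at 0 h, for a decay difference or for a difference of effects, members called alike in all 4 actinomycin D comparisons, the 6 largest differences between lines in each direction, the ryanodine receptors, and 5 partner genes; other names were chosen after their values were seen. Of the marker lists, summed levels in DMSO at 0 h were 12577 to 15173 CPM (Kelly) and 9020 to 11639 CPM (NGP) for adrenergic, 114 to 148 and 185 to 243 for mesenchymal, 1.48 to 7.58 and 2.18 to 4.01 for Schwann, 1.10 to 9.68 and 3.19 to 5.69 for blood, 0.494 to 3.36 and 0 to 0.163 for endothelial, and 0.371 to 2.23 and 0.468 to 5.37 for epithelial genes. KCNA6 had no fragment in any library, and all of its exon bases lie within GALNT8. Of the members, 1 is counted in the totals but not reported here by name.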

Additional observations from a re-analysis of the deposited data

Results flagged for a closer look

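The STM2457 effect at 0 h differed between groups, by a test of the difference itself (edgeR's quasi-likelihood test), for 5 channel genes. For KCNH7 in NGP the effect at 6 days minus that at 3 days was 1.13 (adjusted p 0.0175). For KCNG1 at 6 days NGP minus Kelly was -1.15 (adjusted p 0.000140), and for CACNG4 it was -0.84 (adjusted p 0.0128). For CACNA1H at 3 days NGP minus Kelly was -7.44 (adjusted p 0.00514), and for CACNA1E at 6 days it was 13.94 (adjusted p 0.0439). Both of these fitted values rest on groups at 0 fragments, depend on the prior count and give no size of effect; the first was lost with limma-voom and the second without the 7 Kelly libraries rich in olfactory receptor fragments.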

How the results depend on the processing

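Counts of called channel genes are given in the order Kelly 3 days, Kelly 6 days, NGP 3 days, NGP 6 days. Spike-in scaling gave 14 and 5 for STM2457 at 0 h in Kelly, 54, 49 and 53 for actinomycin D in all but Kelly at 3 days, 2, 18 and 9 for the decay difference in all but NGP at 3 days, 15 and 0 for the difference between durations in Kelly and NGP, 4 for the difference between lines at 3 days and 19 for DMSO at 6 against 3 days in Kelly. limma-voom gave 0 (Kelly 3 days) and 2 (NGP 3 days) for STM2457 at 0 h, 19 for actinomycin D in Kelly at 6 days, 1 for the decay difference in NGP at 3 days and 0 for the difference between lines at 3 days. DESeq2 gave 10 for STM2457 in NGP at 3 days, 3 for the decay difference in NGP at 6 days, 1 and 3 for the difference between durations in Kelly and NGP, and 11 for DMSO over time in Kelly. Relative log expression factors and the filter at a mean of 1 CPM each gave 2 for the decay difference in NGP at 6 days. The causes were not tested. Shares of all genes called were not computed with spike-in scaling, limma-voom, DESeq2 or relative log expression factors.

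Leaving out 1 library at a time gave 0 to 0, 1 to 2, 1 to 3 and 4 to 7 for STM2457 at 0 h, 9 to 18, 8 to 11, 15 to 20 and 18 to 23 for actinomycin D, and 0 to 2, 0 to 1, 1 to 3 and 0 to 2 for the decay difference. It gave 0 to 1 for the difference between durations in NGP, 41 to 43 and 37 to 42 for NGP against Kelly at 3 and 6 days, 1 to 4 for the difference between lines at 6 days, and 5 to 7 (Kelly) and 7 to 9 (NGP) for DMSO over time.

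Same-numbered libraries did not deviate together: the correlation of their deviations lay between -0.046 and 0.049 in Kelly (0 of 66 group pairs over 0.1) and between -0.034 and 0.113 in NGP (1 of 66). With a replicate block the counts were 1, 4, 7 and 7 for STM2457 at 0 h, 18, 12, 19 and 25 for actinomycin D, 0, 0, 2 and 1 for the decay difference, 0 and 1 for the difference between durations, 47 and 50 between lines, 1 and 3 for the difference between lines, and 7 and 10 for DMSO over time.

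Among log2 values of named genes that passed the test under at least 1 of the 2 settings compared, spike-in scaling turned the sign of 38; signs that turned with no call on either side are not listed. For actinomycin D it gave KCNH2 -0.30 in Kelly at 3 days. The 6-day Kelly values were CACNA1B -1.22, CACNA2D1 -1.02, CACNA2D2 -0.57, CACNA2D3 -0.51, CACNB3 -1.18, KCNAB2 -0.91, KCNH2 -1.17, KCNH4 -0.88, KCNMA1 -1.02, KCNMB3 -1.24 and KCNT2 -0.92. In NGP at 3 days it gave CACNA1B -0.66, CACNA1H -0.52, CACNA2D1 -0.79, CACNA2D2 -0.17, KCNAB2 -0.70, KCNH2 -0.79, KCNMA1 -0.44, KCNMB4 -0.59, KCNT2 -0.60 and SCN3A -0.45. In NGP at 6 days it gave CACNA1B -0.72, CACNA1H -1.04, KCNAB2 -0.37, KCNH2 -0.75, KCNH4 -0.32, KCNH7 -0.94, KCNMA1 -0.68, KCNMB4 -0.91, KCNQ3 -1.01, RYR3 -1.02 and SCN3A -1.04. For the decay difference in Kelly at 6 days KCNK3 and SCN8A each stood at 0.54, beside a median of 0.70 over all genes with that scaling. For the difference between durations in Kelly KCNK3 stood at -0.63 and SCN8A at -0.62, beside a median of -0.62 over all genes. For DMSO over time in Kelly KCNH2 stood at 0.38, beside a median of 0.35. By the same measure, leaving out 1 library turned KCNK6 under actinomycin D in NGP at 3 days (-7.91 without replicate 2 at 6 h, up to 1.24). It also turned the difference of CACNA2D3 between lines at 6 days (-7.12 without NGP STM2457 replicate 1, up to 1.07). The values -7.91 and -7.12 rest on a group left with 0 fragments, depend on the prior count and give no size of effect.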
